A study of Mus musculus with 36 samples.

Results

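A set of genes of fetal liver and of imprinted growth control were followed through the livers and the embryonic fibroblasts of a mouse study of Vps15, the regulatory subunit of the class 3 PI3-kinase. The set holds 10 genes taken by name: H19, Igf2, Afp, Gpc3, Dlk1, Meg3, Mest, Peg3, Cdkn1c and Igf2r. All 10 were found among the 136300 features counted in liver and among the 32266 genes listed in fibroblasts. Of these, 9 passed the filter on low values in liver and 6 passed it in fibroblasts. H19 was picked on its pattern across the fibroblast libraries, so its fibroblast values are a description with no test. The other 9 were named for their function, with earlier results of these data known.

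The 4 groups of 3 livers came from 4-week-old male mice killed at ZT14, either fed ad libitum or fasted for 24 h. Wild-type mice were set against Vps15LKO mice, which carried floxed Vps15 alleles and a Cre recombinase driven by Ttr (transthyretin), a promoter active in hepatocytes. The series text writes the line as Vps15iLKO. The RNA came from powdered whole frozen liver, although the samples are labelled as hepatocytes, so other liver cells contributed. The 8 groups of 3 fibroblast libraries came from a single line of mouse embryonic fibroblasts (MEFs) with floxed Vps15, given an adenovirus carrying GFP (the control) or Cre (the knockout). Both were kept without serum in basal medium, in medium without methionine for 4 h, or in that medium followed by methionine for 1 h or 4 h. Nothing in the labels states that the 3 MEF libraries of a group were independent cultures, so p-values there measure the spread between libraries, which may be technical.

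Afp encodes alpha-fetoprotein, the main plasma protein of the fetal liver, which is silenced around birth and returns in regenerating or transformed liver. Most of the other genes are imprinted, that is, transcribed from the chromosome of 1 parent. Igf2 makes a fetal growth factor, H19 is the noncoding RNA beside it, and Igf2r is the receptor that carries IGF2 to the lysosome for destruction. Gpc3, a glypican of the cell surface, is X-linked and not imprinted. In the mouse, as background, Igf2, Dlk1, Mest and Peg3 are expressed from the paternal allele and H19, Meg3, Cdkn1c and Igf2r from the maternal allele.

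On GRCm38 (mm10) with the GENCODE M21 annotation, the imprinted domains are spread over the genome. On chromosome 7 lie H19 (142575529 to 142578143, a long noncoding RNA), Igf2 (142650766 to 142666816), Cdkn1c (143458339 to 143461050) and Peg3 (6703892 to 6730431), all on the minus strand. Chromosome 12 holds Dlk1 (109452823 to 109463336) and Meg3 (109541001 to 109571726, noncoding) on the plus strand. Afp is on chromosome 5 (90490737 to 90508907, plus), Mest on chromosome 6 (30723547 to 30748465, plus), Igf2r on chromosome 17 (12682406 to 12769664, minus) and Gpc3 on the X (52272426 to 52613950, minus). All but H19 and Meg3 encode proteins. Some exon bases are shared with other genes on the same strand, in H19 with Mir675, in Igf2 with Gm49394 and in Meg3 with Mir770 and Mir1906-1, and counts there are uncertain whether or not strand was used. Igf2 with Igf2os, Meg3 with Gm26906 and Cdkn1c with Gm44732 share exon bases across strands, which only counting by strand could divide.

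Depth was 9110836 to 12870944 counts per liver library, and the MEF table gave back whole counts of 19345029 to 21245006 per library. Each liver value below is in CPM, the counts-per-million scale, after TMM scaling of the library sizes, and each fold change is a log2 difference from edgeR's quasi-likelihood test, called at a Benjamini-Hochberg adjusted p under 0.05 over 23875 features. Pik3r4, the gene of Vps15, was not lower in the knockout livers as a whole gene. It stood at 21.2 ± 3.14 CPM in fed wild-type and 24.0 ± 1.63 CPM in fed Vps15LKO liver (SD, n = 3), a log2 difference of 0.18 (SE 0.14, adjusted p = 0.315). A total over the gene does not check a deletion of some of its exons. The hepatocyte markers were present in every liver, and 17 of the 18 listed were in the file. Their summed level was 44862 to 48305 CPM in fed and 59821 to 62026 in fasted wild-type liver, and 18544 to 22517 in fed and 18722 to 21833 in fasted Vps15LKO liver. In whole tissue, fewer cells of a type and less RNA per cell cannot be told apart.

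Against this background, Vps15LKO liver held more Afp and Igf2r RNA than wild-type liver in both feeding states, and less Cdkn1c RNA. The fasted Cdkn1c call was lost with library sizes as the only scaling. Meg3 was high in fed wild-type liver alone of the 4 groups, and Peg3 moved in opposite directions with fasting in the 2 genotypes. Igf2 and H19 themselves did not pass any liver test. In the fed state 5 of the 9 tested genes differed between genotypes, with Afp, Peg3 and Igf2r higher and Meg3 and Cdkn1c lower, where 46.2% of all features were called and 50.6% of those calls were higher. In the fasted state 4 differed, with Afp and Igf2r higher and Peg3 and Cdkn1c lower, where 56.1% of all features were called and 50.0% of those calls were higher. Library sizes as the only scaling moved the median of all features to 0.39 fed and 0.52 fasted and raised the share of higher calls to 76.5% and 76.6%, with 6 and 5 of the 9 genes called. Both counts lie close to the share called among all features, so the counts by themselves are no result about these genes. The median log2 difference of the 9 was 0.25 fed and 0.19 fasted, beside 0.015 and 0.009 over all features.

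**Figure D1:**
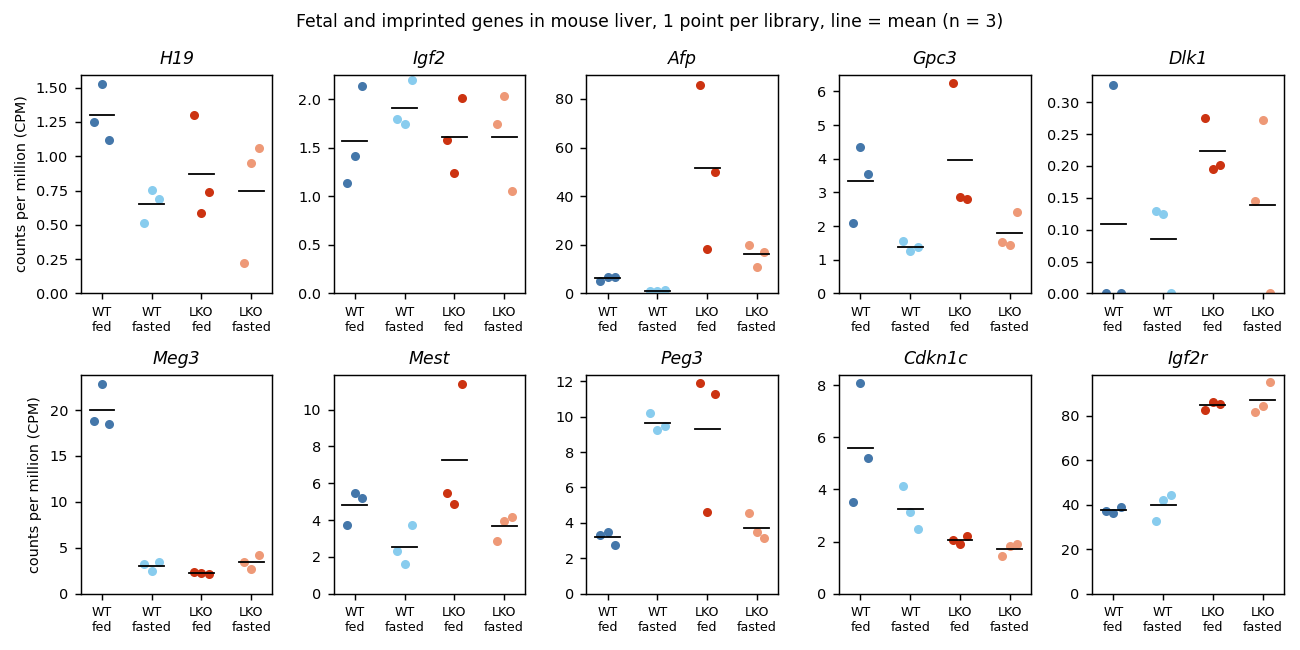
CPM of the 10 genes in each of the 12 liver libraries, by group on the horizontal axis, with a line at the mean of 3 libraries. Meg3 sits at 18.5 to 22.8 CPM in fed wild-type liver and at 2.14 to 4.18 CPM in the other 9 libraries, and Igf2r separates by genotype at 32.9 to 44.4 against 81.8 to 95.4 CPM.

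Afp, the fetal plasma protein gene on chromosome 5, gave the widest range of the set. Fed wild-type livers held 5.19, 6.54 and 6.92 CPM and fasted wild-type livers 1.16, 0.877 and 1.37 CPM. Fed Vps15LKO livers held 85.8, 18.4 and 50.0 CPM and fasted Vps15LKO livers 20.1, 11.0 and 17.0 CPM. Every knockout library lay above every wild-type library, and the fed knockout libraries were spread over a range wider than the level of any wild-type liver. Afp was higher in Vps15LKO liver by 3.04 on the log2 scale when fed (SE 0.53, adjusted p = 0.00120) and by 3.81 when fasted (SE 0.72, adjusted p = 0.00155). The 2 differences were not shown to differ from each other (interaction 0.77, SE 0.97, adjusted p = 0.686). Fasted livers lay below fed livers in wild-type mice without overlap, but that difference of -2.45 missed the threshold (adjusted p = 0.0519). It passed when the 2 wild-type groups were fitted alone (6.69e-05), with DESeq2 (0.000279) and with library sizes as the only scaling (0.0308). In Vps15LKO liver the fasting difference was -1.68 (adjusted p = 0.110), and -2.09 (0.00195) without fed Vps15LKO library b, the lowest of its group. DESeq2 called it (0.0249).

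Alb and Afm, the albumin and afamin genes of the same cluster, went the other way. Alb was 16850 CPM on average in fed wild-type and 7593 in fed Vps15LKO liver, a log2 difference of -1.15 (adjusted p = 4.49e-07), and -1.10 in fasted livers (3.85e-07). Afm averaged 433 CPM in fed and 184 in fasted wild-type liver, and 60.7 in fed and 66.5 in fasted Vps15LKO liver, a genotype difference of -2.83 when fed (1.93e-10). Per kilobase of exon, Afp in fed Vps15LKO liver reached 15.3 CPM per kb. The list of albumin family members and embryonic plasma proteins, in which Alb and Afm are counted, had 10 of 11 lower and none higher in fed Vps15LKO liver (median log2 difference -1.03) and 11 of 11 lower in fasted (median -1.12). Afp thus moved against Alb and Afm, while Rassf6, a further neighbour, rose by 0.67 fed (0.00374) and 1.40 fasted (3.70e-06). With library sizes as the only scaling 8 of the list were lower when fed and 11 when fasted. Among all features 22.8% were called lower fed and 28.1% fasted after TMM scaling.

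**Figure D2:**
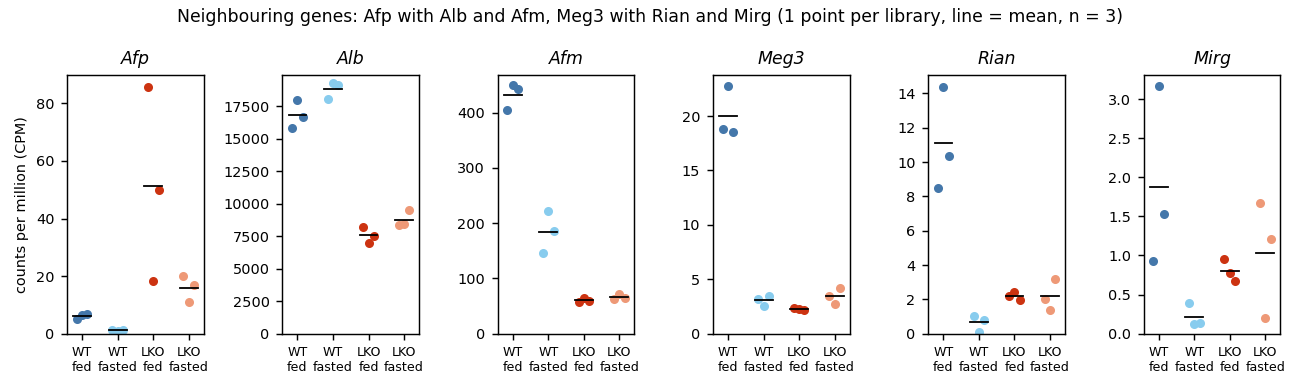
CPM by library, on linear axes from 0, for Afp with its cluster neighbours Alb and Afm, and for Meg3 with Rian and Mirg of its own domain, in the 4 liver groups. Afp is higher and Alb and Afm lower in Vps15LKO liver, while the mean of Meg3, of Rian and of Mirg is highest in fed wild-type liver.

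The promoters of Afp and Alb are shown because these neighbours moved apart. Both come from RefSeq on GRCm38.p6 and cover the bases just before and after the start site, on the plus strand. Capitals mark GTTAAT, a core of the motif of the liver factor HNF1, searched on both strands, which 2332 of 32851 mouse promoters of this length hold (7.1%).
Afp, chr5:90490464-90490763: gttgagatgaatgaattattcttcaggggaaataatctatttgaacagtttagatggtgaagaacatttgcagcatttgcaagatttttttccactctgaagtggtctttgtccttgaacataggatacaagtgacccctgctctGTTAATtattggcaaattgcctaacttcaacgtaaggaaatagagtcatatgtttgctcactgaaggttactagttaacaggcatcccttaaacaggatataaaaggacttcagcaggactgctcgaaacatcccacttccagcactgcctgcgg
Alb, chr5:90460620-90460919: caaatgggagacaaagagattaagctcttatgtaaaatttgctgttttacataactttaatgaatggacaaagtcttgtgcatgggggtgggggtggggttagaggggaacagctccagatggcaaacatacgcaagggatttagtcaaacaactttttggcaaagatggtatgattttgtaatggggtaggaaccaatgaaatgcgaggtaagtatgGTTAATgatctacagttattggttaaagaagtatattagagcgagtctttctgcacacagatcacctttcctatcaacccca
Each window holds a single match, at -105 in Afp and at -32 in Alb. Among the other genes of the set, Mest has it in 2 of 3 promoters and none of the others with a promoter entry has it. A match describes letters and not a bound site.

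The factors known to silence Afp after birth, or to drive its enhancers, were measured beside it. Zhx2, a repressor of Afp and H19 in adult mouse liver, fell by 0.51 in fed (adjusted p = 0.00419) and by 0.35 in fasted Vps15LKO liver (0.0353). Zbtb20, another repressor of Afp, differed by -0.63 (0.00226) and -0.86 (0.000117). Cebpa, a hepatocyte transcription factor, differed by -1.42 fed (3.04e-07) and -1.42 fasted (1.74e-07). Of the list of 26 such factors, 15 fell and 2 rose in fed Vps15LKO liver (median -0.50), and 16 fell and 2 rose in fasted (median -0.57). Of all features, 22.8% were called lower and 23.3% higher fed, and 28.1% and 28.0% fasted. Scaled by library size alone, the list had 8 lower and 3 higher fed, and 7 lower and 7 higher fasted. In fasted liver the direction of the list's calls therefore depended on the scaling. The differences of single genes here are after TMM scaling. The TMM scaling factors were 0.8006 to 0.8057 in fasted wild-type and 1.1085 to 1.1856 in fasted Vps15LKO libraries. Zhx2 held 218, 247 and 242 counts in fasted wild-type and 329, 369 and 306 in fasted Vps15LKO libraries. Its fall in fasted liver therefore rests on that scaling. When fed, Zhx2 held 318 of 9992505 counts in wild-type library b and 454 of 12734986 in Vps15LKO library c. Zbtb20 held 1268 of 10856930 in fed wild-type library c and 1717 of 12595739 in fed Vps15LKO library a. As shares of total counts the fed genotypes therefore overlapped for both genes. Tead1, a partner of YAP, was higher by 1.01 when fed (6.22e-05).

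Other markers of fetal liver and of liver tumours were largely higher in the knockout. Among 22 tested of a list of 32, 15 were higher and 1 lower in fed Vps15LKO liver (median 1.40), and 19 were higher and 1 lower in fasted (median 2.22), beside 23.3% and 28.0% of all features called higher. Under library-size scaling alone, 17 were higher and none lower fed, and 20 higher and 1 lower fasted. Lgals3, a galectin, averaged 24.3 CPM in fed wild-type and 124 CPM in fed Vps15LKO liver. Sox9, a transcription factor of bile duct and progenitor cells, averaged 8.87 CPM in fed and 17.8 in fasted wild-type liver, and 70.0 in fed and 124 in fasted Vps15LKO liver. Bex2 had no count in fed wild-type liver and averaged 10.5 CPM in fed Vps15LKO liver, at least 33.3-fold higher against a floor of 3 counts per library. Cdh17 was at 0 in both wild-type groups and averaged 4.25 CPM in fed and 3.66 CPM in fasted Vps15LKO liver, at least 13.5-fold and 9.34-fold higher. That list shares 5 genes with the cholangiocyte markers, Sox9 among them, and 1 with the hepatocyte markers (Ahsg). Igf2bp2, which binds Igf2 RNA, rose by 1.41 fed (0.00108) and 1.97 fasted (6.24e-05), while Igf2bp1 and Igf2bp3 averaged at most 0.170 CPM in any group and Lin28b had no count.

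Markers of other cell types moved with these groups. The macrophage list summed to 1887 to 2417 CPM in fed and 629 to 874 in fasted wild-type liver, and 3580 to 4312 in fed and 3152 to 3657 in fasted Vps15LKO liver, and 14 of 16 were higher in fed Vps15LKO liver. The cholangiocyte list summed to 174 to 189, 148 to 173, 355 to 422 and 394 to 555 CPM in the same group order. The stellate cell and fibroblast list summed to 978 to 1018, 893 to 975, 1148 to 1500 and 1220 to 1371 CPM. A second list, of 12 fibroblast identity markers, summed to 2416 to 3049, 2035 to 2453, 1415 to 2086 and 1263 to 1353 CPM. Its sum was thus lower in the knockout. A sum follows the most abundant genes and does not count how many markers fell. Its members Col1a1, Col1a2, Col3a1, Thy1, Pdgfra and Pdgfrb are also in the stellate list, whose sum was higher in the knockout. With library sizes as the only scaling, 7 of its 11 tested genes were higher and 1 lower when fed. In the fasted state 8 were higher and 1 lower. The medians of the list were then 1.32 fed and 1.52 fasted, beside 0.39 and 0.52 over all features. Endothelial markers summed to 898 to 1097, 713 to 844, 998 to 1153 and 979 to 1091 CPM. Cell cycle genes were higher in 18 of 20 in fed and 19 of 20 in fasted Vps15LKO liver, and lower in 11 of 20 on fasting in wild-type. Beside these and the macrophage counts, 23.3% of all features were called higher in fed and 28.0% in fasted Vps15LKO liver. On fasting in wild-type 13.8% were called lower. Erythroid markers summed to 369 to 459 CPM in fed and 362 to 401 in fasted wild-type liver, and 273 to 323 in fed and 338 to 375 in fasted Vps15LKO liver, and the embryonic globins Hbb-y, Hba-x and Hbb-bh1 had no count in any group. The part of these cell types in the changes of Afp and its companions was not tested.

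Igf2 and H19 lie in the same imprinted domain on chromosome 7. Igf2 held 1.14, 1.42 and 2.14 CPM in fed and 1.80, 1.75 and 2.20 in fasted wild-type liver, and 1.58, 1.24 and 2.01 in fed and 1.75, 2.04 and 1.06 in fasted Vps15LKO liver. The 4 groups overlapped. The genotype difference was 0.034 fed (SE 0.36, adjusted p = 0.948) and -0.24 fasted (SE 0.36, adjusted p = 0.600), and the fasting difference was 0.29 in wild-type (adjusted p = 0.620) and 0.016 in Vps15LKO (adjusted p = 0.989). Igf2 rested on 11 to 30 counts per library, which limits what could be detected.

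H19 stood at 11 to 14 counts in fed wild-type liver, or 1.25, 1.53 and 1.12 CPM, and at 0.515, 0.752 and 0.687 CPM in fasted wild-type liver. Fed Vps15LKO livers held 1.30, 0.585 and 0.737 CPM and fasted Vps15LKO livers 0.218, 0.953 and 1.06 CPM. On this TMM scale fed wild-type liver overlapped neither fasted group, and the other pairs of groups overlapped. Fed wild-type library c held 11 of 10856930 counts and fasted Vps15LKO library c 14 of 11909624. As shares of total counts fed wild-type and fasted Vps15LKO liver therefore overlapped. The fasting difference of -0.98 in wild-type liver (SE 0.55, adjusted p = 0.211) and the genotype difference of -0.56 when fed (SE 0.48, adjusted p = 0.360) did not pass. Nor did the fasting difference of -0.22 in Vps15LKO (0.859) or the genotype difference of 0.19 when fasted (0.796). Lsp1 of the same domain, a leukocyte protein, averaged 11.0 CPM in fed wild-type and 34.0 CPM in fed Vps15LKO liver (log2 difference 1.62, adjusted p = 3.11e-07). Mrpl23 of the domain was not called in either feeding state.

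Igf2r, the clearance receptor, separated the genotypes in both feeding states. Wild-type livers held 37.1, 36.5 and 39.1 CPM when fed and 32.9, 42.3 and 44.4 CPM when fasted. Vps15LKO livers held 82.5, 86.5 and 85.3 CPM when fed and 81.8, 84.6 and 95.4 CPM when fasted. Every knockout library was above every wild-type library, and fed and fasted libraries overlapped in each genotype, with fasting differences of 0.085 in wild-type (adjusted p = 0.650) and 0.041 in Vps15LKO (0.894). The log2 difference was 1.17 fed (SE 0.12, adjusted p = 4.00e-07) and 1.13 fasted (SE 0.12, adjusted p = 3.58e-07), and the interaction was -0.044 (SE 0.17, adjusted p = 0.904). M6pr, the other mannose 6-phosphate receptor, was higher by 0.66 fed (5.60e-05) and 0.77 fasted (7.03e-06), from 96.3 CPM in fed wild-type to 152 CPM in fed Vps15LKO liver. Across the 12 liver libraries Igf2r and M6pr had a Pearson r of 0.968, points that share library, depth and genotype. Airn, the noncoding RNA of the Igf2r domain, averaged 0.390 CPM in fed wild-type and 1.07 CPM in fed Vps15LKO liver and rose by 1.45 (0.0437). It rose by 3.09 in fasted liver (0.00156). Airn held 3, 6 and 2 counts in fed and 1, 2 and 0 in fasted wild-type libraries, so the sizes of both rises are uncertain. Igf2r shares no exon bases with another gene in the annotation.

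The promoter of Igf2r is given because the gene separated the genotypes completely. It lies on the minus strand of chromosome 17 and comes from RefSeq on GRCm38.p6. Capitals mark TCACGTGA, the core of an E-box found in genes of lysosomes, searched on both strands and present in 320 of 32851 promoters (0.974%).
Igf2r, chr17:12769657-12769956: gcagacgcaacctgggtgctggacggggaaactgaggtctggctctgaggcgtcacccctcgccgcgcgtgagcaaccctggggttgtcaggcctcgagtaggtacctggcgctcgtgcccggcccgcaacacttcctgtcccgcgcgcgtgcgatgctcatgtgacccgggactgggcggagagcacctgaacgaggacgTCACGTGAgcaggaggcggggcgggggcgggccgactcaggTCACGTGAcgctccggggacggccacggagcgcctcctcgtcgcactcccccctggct
The 2 matches start at -49 and -8. None of the other genes with a promoter entry holds these letters in its window.

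The rest of the IGF system moved in both directions. Among 16 tested of 20 listed genes, 5 were higher and 6 lower in fed Vps15LKO liver (median -0.075), and 4 were higher and 7 lower in fasted (median -0.10). Of all features, 23.3% were called higher and 22.8% lower fed, and 28.0% and 28.1% fasted. With library sizes as the only scaling the balance of the list turned. It gave 8 higher and 4 lower fed (median 0.30) and 7 higher and 6 lower fasted (median 0.42). Igf1, the postnatal growth factor, averaged 965 CPM in fed wild-type and 383 CPM in fed Vps15LKO liver, a difference of -1.33 (adjusted p = 3.95e-07). Igfals, its carrier in blood, averaged 336 CPM in fed wild-type and 40.3 CPM in fed Vps15LKO liver, a difference of -3.06 (6.64e-08). Igfbp1, a fasting-induced binding protein, averaged 35.2 CPM in fed and 534 in fasted wild-type liver, and 597 in fed and 947 in fasted Vps15LKO liver. Igfbp2 averaged 147 CPM in fed and 1407 CPM in fasted wild-type liver and 67.0 and 83.8 CPM in fed and fasted Vps15LKO liver, and its response to fasting differed between genotypes by -2.94 (0.0258). In these livers, then, the receptor rose while Igf2 passed no test and Igf1 fell.

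Meg3 is the maternally expressed noncoding RNA of the Dlk1 domain on chromosome 12. Fed wild-type livers held 18.8, 22.8 and 18.5 CPM. Fasted wild-type livers held 3.22, 2.51 and 3.44 CPM, fed Vps15LKO livers 2.33, 2.28 and 2.14 CPM and fasted Vps15LKO livers 3.49, 2.72 and 4.18 CPM. Fed wild-type liver stood clear of the other groups, and fasted wild-type overlapped fasted Vps15LKO. Meg3 fell by 2.71 with fasting in wild-type (SE 0.21, adjusted p = 1.44e-07), while the difference was 0.62 in Vps15LKO (SE 0.22, adjusted p = 0.141). The knockout differed by -3.15 when fed (SE 0.20, adjusted p = 2.43e-09) and by 0.18 when fasted (SE 0.23, adjusted p = 0.523). The difference between these responses was 3.33 (SE 0.30, adjusted p = 5.76e-06), 1 of 2 interactions called among the 9 genes where 12% of all features were called. Scaled by library size alone, the fasted genotype difference was 0.69 (adjusted p = 0.0136).

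Rian and Mirg, noncoding RNAs downstream of Meg3 on the same strand, were also highest in fed wild-type liver on average. Rian gave 8.52, 14.4 and 10.4 CPM in fed and 1.03, 0.125 and 0.825 in fasted wild-type liver, and 2.20, 2.41 and 1.94 in fed and 2.04, 1.36 and 3.19 in fasted Vps15LKO liver. Fed wild-type again stood clear, and unlike Meg3 the fasted wild-type libraries lay below all Vps15LKO libraries. Its interaction was 4.06 (SE 0.57, adjusted p = 0.000211) and that of Mirg 3.38 (SE 1.00, adjusted p = 0.0337). Meg3 correlated with Rian at r = 0.795 and with Mirg at r = 0.586 across the 12 libraries, which share depth and group. Dlk1, the Notch-related membrane protein at the other end of the domain, had 0 to 4 counts in every liver library and was not tested. The Notch list around it had 4 of 11 higher and none lower in fed Vps15LKO liver (median 0.45) and 5 of 11 higher in fasted (median 0.53), beside 23.3% and 28.0% of all features called higher. Under library-size scaling alone, 8 and 9 of 11 were higher (medians 0.83 and 1.05).

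**Figure D3:**
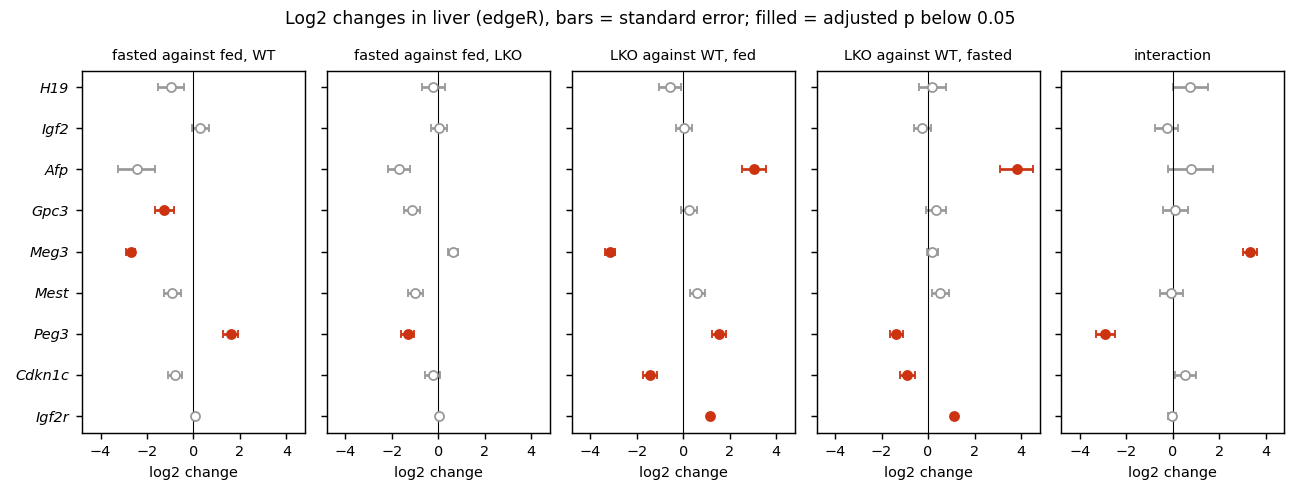
Log2 differences with standard errors for the 9 tested genes in the 5 liver comparisons, filled where the adjusted p was under 0.05. Meg3 and Peg3 carry the filled interactions, at 3.33 and -2.91, and Igf2r and Afp are filled to the right of 0 in both genotype comparisons.

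Peg3, a paternally expressed zinc-finger gene on chromosome 7, gave a crossed pattern. Fed wild-type livers held 3.32, 3.49 and 2.75 CPM and fasted wild-type livers 10.2, 9.27 and 9.49 CPM. Fed Vps15LKO livers held 11.9, 4.62 and 11.3 CPM and fasted Vps15LKO livers 4.58, 3.47 and 3.12 CPM. Fed and fasted libraries did not overlap within either genotype, with fed Vps15LKO library b lying just above the highest fasted one. Peg3 rose with fasting by 1.60 in wild-type (SE 0.31, adjusted p = 0.00102) and fell by 1.31 in Vps15LKO (SE 0.28, adjusted p = 0.0323), and the interaction was -2.91 (SE 0.42, adjusted p = 0.000279). The fall in Vps15LKO was not called without fed Vps15LKO library a (0.127) or c (0.114), without fasted Vps15LKO library a (0.0917) or c (0.176), or with these 2 groups fitted alone (0.111). In genotype terms Peg3 was higher by 1.54 fed (SE 0.30, adjusted p = 0.000447) and differed by -1.37 fasted (SE 0.29, adjusted p = 0.000717). The neighbours Usp29, Zim1 and Zim2 stayed close to 0 counts.

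The promoters of Meg3 and Peg3 are shown because these genes carried the 2 called interactions. Both come from RefSeq on GRCm38.p6, Meg3 on the plus and Peg3 on the minus strand. Capitals mark TGACGTCA, the cAMP response element, searched on both strands and held by 588 of 32851 promoters (1.79%).
Meg3, chr12:109540746-109541045: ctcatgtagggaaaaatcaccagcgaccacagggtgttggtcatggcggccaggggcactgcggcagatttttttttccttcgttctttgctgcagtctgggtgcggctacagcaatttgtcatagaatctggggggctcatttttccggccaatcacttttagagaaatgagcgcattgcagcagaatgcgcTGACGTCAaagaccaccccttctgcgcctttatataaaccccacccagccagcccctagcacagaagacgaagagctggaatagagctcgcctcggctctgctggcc
Peg3, chr7:6730370-6730669: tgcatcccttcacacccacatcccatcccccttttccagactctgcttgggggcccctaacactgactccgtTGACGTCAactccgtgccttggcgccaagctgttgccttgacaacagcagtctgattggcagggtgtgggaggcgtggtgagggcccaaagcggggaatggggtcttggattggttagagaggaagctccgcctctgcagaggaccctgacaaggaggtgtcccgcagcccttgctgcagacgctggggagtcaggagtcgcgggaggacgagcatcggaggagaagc
The match starts at -57 in Meg3 and at -178 in Peg3. A second Meg3 start site in the table holds none, and neither do the other genes with an entry.

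Cdkn1c, a maternally expressed inhibitor of cyclin-dependent kinases, was lower in the knockout. Fed wild-type livers held 3.53, 8.07 and 5.19 CPM, fasted wild-type 4.12, 3.13 and 2.47, fed Vps15LKO 2.06, 1.89 and 2.21, and fasted Vps15LKO 1.45, 1.84 and 1.90 CPM. On this TMM scale all 6 knockout libraries lay below all 6 wild-type libraries. Fasted wild-type library c held 18 of 9110836 counts and fed Vps15LKO library c 33 of 12734986. As shares of total counts the genotypes therefore overlapped. The log2 difference was -1.44 fed (SE 0.30, adjusted p = 0.000661) and -0.90 fasted (SE 0.32, adjusted p = 0.0247). The fasted call was lost without fasted wild-type library a (0.137) or b (0.0523) or fasted Vps15LKO library a (0.0814), with no filter (0.0690), with DESeq2 (0.0563) and with library sizes as the only scaling (-0.40, 0.295). Fasting differences did not pass, at -0.78 in wild-type (adjusted p = 0.0665; -1.03 and 0.0181 without fed wild-type library a, 0.0234 with library sizes alone and 0.0443 with no filter) and -0.24 in Vps15LKO liver (0.747). Phlda2, a maternally expressed gene of the same domain, averaged 0.493 CPM in fed wild-type and 3.81 CPM in fed Vps15LKO liver and rose by 2.93 (3.98e-05). It had no count in fasted wild-type liver and was at least 9.97-fold higher in fasted Vps15LKO liver. Among the 6 CDK inhibitors tested, 3 rose and none fell in fed Vps15LKO liver (median 0.89), among them Cdkn2b by 3.40 (5.56e-07), and 2 rose and 1 fell in fasted (median 0.40). Of all features, 23.3% were called higher fed and 28.0% fasted. With library sizes as the only scaling 5 of the inhibitors rose fed and 3 rose fasted, and none fell.

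Gpc3 fell with fasting in wild-type liver, and Mest passed no test with the settings used throughout. Gpc3 held 2.08, 4.36 and 3.56 CPM in fed and 1.55, 1.25 and 1.37 CPM in fasted wild-type liver, which did not overlap, and its log2 difference was -1.25 (SE 0.42, adjusted p = 0.0336). That call was lost without any of 5 libraries: fed wild-type b (0.134) or c (0.0797), or fasted wild-type a (0.0648), b (0.0896) or c (0.0786). In Vps15LKO liver the values were 6.25, 2.86 and 2.81 CPM fed and 1.53, 1.43 and 2.43 CPM fasted, a difference of -1.14 (adjusted p = 0.0987), called with no filter (-1.11, 0.0214), and the genotypes overlapped. Mest, a paternally expressed hydrolase gene, held 3.74, 5.45 and 5.19 CPM fed and 2.32, 1.63 and 3.71 CPM fasted in wild-type liver, a difference of -0.92 (adjusted p = 0.0832), and -1.28 (0.0401) without fasted wild-type library c. It was also called with library sizes alone (-1.10, 0.0327), with no filter (-1.01, 0.00664) and with the groups compared fitted alone (0.0460). Fed Vps15LKO livers held 5.49, 4.88 and 11.4 CPM and fasted Vps15LKO livers 2.84, 3.95 and 4.18 CPM, a difference of -0.99 (0.113), called with no filter (-0.95, 0.00758). Scaled by library size alone, Mest was called in both genotype comparisons (0.97, 0.0158 fed and 1.03, 0.0207 fasted). The genotype differences of Gpc3 were 0.25 fed (adjusted p = 0.580) and 0.36 fasted (0.496). Those of Mest were 0.60 fed (0.139) and 0.53 fasted (0.245). The glypican list had 2 of 3 tested lower in fed Vps15LKO liver, Gpc1 at -1.75 (9.48e-06) and Gpc4 at -0.44 (0.00968), and 1 lower in fasted, Gpc1 at -1.54 (2.32e-05). Of all features, 22.8% were called lower fed and 28.1% fasted. Under library-size scaling alone, the glypican list had 1 higher and 1 lower fed, and 2 higher and 1 lower fasted. Some exon bases of Mest lie in Copg2 on the opposite strand, and Copg2 was not called.

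Fasting as such called 3 of the 9 genes in wild-type liver (Peg3 higher, Meg3 and Gpc3 lower), where 26.3% of all features were called, and 1 in Vps15LKO liver (Peg3 lower), where 1.52% were called. Their medians were -0.92 and -0.24, beside -0.008 and -0.016 over all features. The interactions not called were 0.75 for H19 (adjusted p = 0.574), -0.27 for Igf2 (0.792), 0.11 for Gpc3 (0.931), -0.070 for Mest (0.954) and 0.54 for Cdkn1c (0.485), besides those of Afp and Igf2r. With library sizes as the only scaling the median of all features was -0.19 in wild-type liver and 6 of the 9 were called, 1 higher and 5 lower. The share of higher calls among all features then moved from 47.5% to 25.5% in wild-type and from 55.0% to 35.3% in Vps15LKO liver, and from 52.6% to 68.9% for the interaction.

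The imprinted genes at large moved in both directions. Of 15 tested paternally expressed genes, 3 rose and 2 fell with fasting in wild-type, none in Vps15LKO, 2 rose and 2 fell in fed Vps15LKO against wild-type, and 2 rose and 3 fell in the fasted state. Of 23 tested maternally expressed genes, the counts were 3 and 8, none, 4 and 7, and 9 and 7 in the same order. The shares called among all features in these comparisons were 26.3%, 1.52%, 46.2% and 56.1%. The medians of the 2 lists lay between -0.33 and 0.12. Scaled by library size alone, the paternal list gave 1 higher and 3 lower, none, 6 and 2, and 9 and 3. The maternal list then gave 1 higher and 11 lower, 2 lower, 12 and 3, and 14 and 3, so the balance in the knockout depended on the scaling. Slc38a4, a paternally expressed amino acid transporter, rose with fasting in wild-type by 0.96 and differed by -1.79 in fasted Vps15LKO liver (2.09e-08). Impact, a paternally expressed regulator of translation, was higher by 1.19 in fed Vps15LKO liver (8.53e-06).

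Per kilobase of exon in fed wild-type liver the order ran from Igf2r at 4.04 CPM per kb through Cdkn1c at 2.75, Afp at 1.85, Gpc3 at 1.24, Mest at 1.22 and Meg3 at 1.11 to H19 at 0.527, Igf2 at 0.274, Peg3 at 0.239 and Dlk1 at 0.0193. Gpc3, Mest and Meg3 differed by less than their spread, as did Igf2 and Peg3. In fed Vps15LKO liver Afp led at 15.3 CPM per kb and Igf2r followed at 9.11. With the longest transcript in place of the union of exons 6 genes changed place. By likeness over the 12 libraries the genes with the pattern most like Afp were Akr1c18 (r = 0.984), Golt1b, Cd38, Panx1 and Mrtfa. For H19 they were Ogn (r = 0.870), Pphln1, Fam171a1, Cog8 and Efemp1.

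In the MEFs the column headings were taken as given, and the libraries are named by them. Genes that rise when methionine is withdrawn did not follow those headings. Mat2a, the methionine adenosyltransferase gene, averaged 12.34 log2 units in GFP basal, 12.17 in GFP deprived, 13.89 in GFP 1 h and 13.77 in GFP 4 h libraries. In CRE libraries it averaged 13.60, 13.59, 11.80 and 11.43. The summed list of 18 response genes was 52910 to 55702 normalised counts in GFP basal, 60968 to 65063 in GFP deprived, 121007 to 130365 in GFP 1 h and 138451 to 146781 in GFP 4 h libraries. It was 103335 to 110538, 125814 to 127085, 68258 to 69933 and 79984 to 82446 in the CRE libraries. GFP and CRE libraries thus moved in opposite directions between deprived and 1 h. The nearest mean profiles joined CRE deprived with GFP 4 h (root mean square log2 distance 0.18) and CRE basal with GFP 1 h (0.183). Every MEF difference is therefore one between headings, and whether the headings name the treatments was not tested.

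The third library of the CRE 4 h group stood apart from its mates, with a chi-square per degree of freedom of 18.11 and 16.324 against 1.814 to 4.712 for every other pair of replicates. Pik3r4 averaged 9.91, 9.64, 9.90 and 9.73 log2 units in GFP basal, deprived, 1 h and 4 h libraries and 10.13, 9.86, 10.05 and 9.78 in the CRE libraries, again as a whole gene. None of 12 fibroblast identity markers was at 0 in any MEF group. The same held in every liver group, so this by itself does not establish fibroblast identity. Each MEF value is a deposited variance-stabilised value on a log2 scale, which understates the change of low genes, and tests used limma over 13914 genes.

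H19 was picked for the pattern it showed over these headings. GFP basal libraries held 10.84, 10.91 and 10.67 log2 units, GFP deprived 9.39, 9.32 and 9.25, GFP 1 h 10.11, 9.99 and 10.02, and GFP 4 h 8.33, 8.32 and 8.59. CRE basal libraries held 10.07, 10.01 and 10.10, CRE deprived 8.21, 8.35 and 8.49, CRE 1 h 10.68, 10.71 and 10.66, and CRE 4 h 8.90, 9.07 and 8.94. In both sets the basal and 1 h libraries were high and the deprived and 4 h libraries low, with no overlap between them. On the linear scale the group means ran from 293 ± 31.6 normalised counts in CRE deprived to 1756 ± 151 in GFP basal (SD, n = 3).

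The summed level of 18 stellate cell and fibroblast markers was also higher under basal and 1 h than under deprived and 4 h. It was 188573 to 197168 normalised counts in GFP basal and 139629 to 149547 in GFP deprived libraries. GFP 1 h libraries held 175852 to 188769 and GFP 4 h libraries 122108 to 132740. In CRE libraries the sum was 175773 to 191334, 118554 to 125739, 171006 to 174394 and 124759 to 130193, with Lrat at 0 in all groups but CRE 4 h. From CRE basal to CRE 1 h the sum fell while H19 rose. The part of these markers in the H19 pattern was not tested.

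In order of level, GFP basal and CRE 1 h stood first and overlapped, then CRE basal and GFP 1 h, which overlapped, then GFP deprived, CRE 4 h, and at the bottom GFP 4 h and CRE deprived, which overlapped. Of these overlapping pairs, the last 2 are the headings whose whole profiles were nearest. The genes with the most similar pattern over the 24 libraries were Ltbp4 (r = 0.967), Fstl1, Angptl7, Col11a1 and Col3a1. The libraries share culture, depth and heading. In the same libraries Meg3 correlated with H19 at r = 0.694, and at 0.887 over the 23 libraries without the CRE 4 h library that stood apart.

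**Figure D4:**
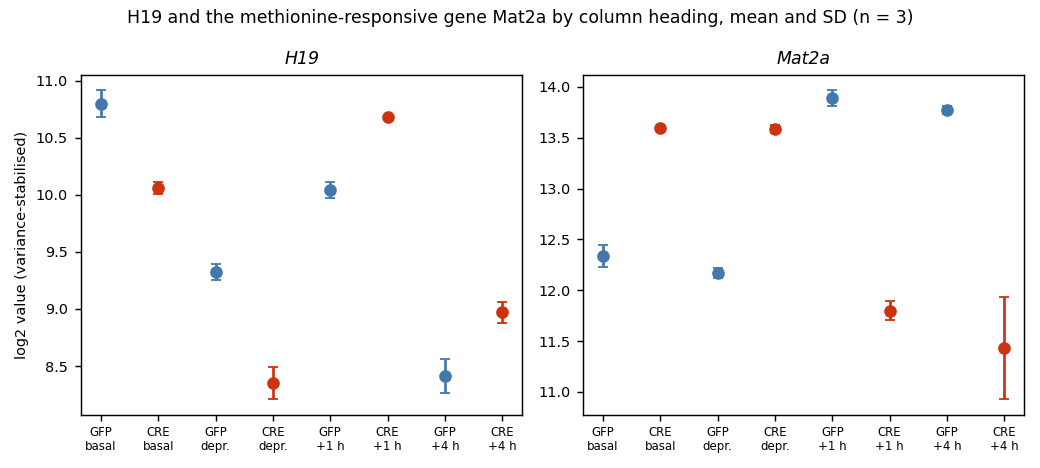
Group means with SD (n = 3) of H19 and Mat2a in log2 units, by medium heading on the horizontal axis and by GFP or CRE heading. H19 is high under basal and 1 h and low under deprived and 4 h in both, while Mat2a rises from deprived to 1 h under GFP (12.17 to 13.89) and falls under CRE (13.59 to 11.80).

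Meg3 held 9.47, 9.63 and 9.63 log2 units in GFP basal, 9.34, 9.22 and 9.01 in GFP deprived, 9.54, 9.18 and 9.14 in GFP 1 h, and 8.79, 8.81 and 8.54 in GFP 4 h libraries. CRE basal libraries held 9.54, 9.60 and 9.44, CRE deprived 8.74, 8.49 and 8.63, CRE 1 h 9.39, 9.36 and 9.31, and CRE 4 h 8.80, 8.82 and 7.14. Meg3 was thus lowest in the deprived and 4 h CRE libraries and in the GFP 4 h libraries. Rian moved with it, from 9.18 in CRE basal to 8.52 in CRE deprived libraries on average.

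Igf2r, with the highest level per length, held 12.97, 13.06 and 12.85 log2 units in GFP basal, 13.25, 13.21 and 13.01 in GFP deprived, 12.45, 12.64 and 12.39 in GFP 1 h, and 12.98, 12.84 and 12.78 in GFP 4 h libraries. CRE libraries held 12.68, 12.45 and 12.59 at basal, 12.78, 12.79 and 12.51 deprived, 12.53, 12.70 and 12.67 at 1 h, and 12.78, 12.91 and 13.25 at 4 h. CRE libraries lay below GFP libraries without overlap at basal and deprived, and the groups overlapped at 1 h and 4 h. Mest held 5.39 to 6.12 log2 units over all 24 libraries from 14 to 39 counts, Igf2 6 to 29 counts and Dlk1 6 to 21 counts. Afp (0 to 12 counts), Gpc3 (0 to 4), Peg3 (0 to 6) and Cdkn1c (0 to 4) were too low to test.

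**Figure D5:**
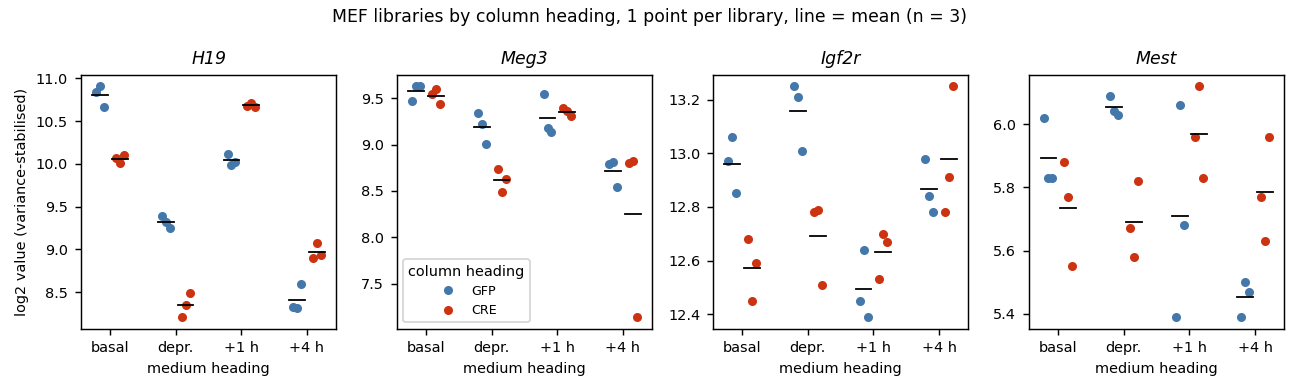
Log2 values by library for H19, Meg3, Igf2r and Mest under the 8 headings, with a line at the mean of 3 libraries. H19 spans 8.21 to 10.91, while Igf2r spans 12.39 to 13.25.

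Between CRE and GFP, the 5 tested genes other than H19 gave few calls. At basal, 1 of 5 was called (58.3% of all genes were), with Igf2r at -0.39 (adjusted p = 0.00774). At deprived, 2 of 5 were called (62.6% of all genes), with Igf2r at -0.46 (0.00213) and Mest at -0.37 (0.0165). At 1 h none of 5 was called (55.0% of all genes), and at 4 h 1 of 5 (59.8% of all genes), with Mest at 0.33 (0.0310). Mest at deprived was not called without CRE deprived library 2 (-0.31, 0.0723). Mest at 4 h was 0.24 (0.146) without the CRE 4 h library that stood apart, and was not called without CRE 4 h library 1 (0.0516) or GFP 4 h library 1 (0.0903) or 3 (0.0562). Called with a library left out, but not with all in, were Mest at 1 h (0.43, 0.00736 without GFP 1 h library 2), Dlk1 at deprived (-0.39, 0.0158 without CRE deprived library 2) and Meg3 at 4 h (-0.73, 0.0493 without CRE 4 h library 1; -0.74, 0.0438 without library 2). These counts lie below the share called among all genes. With every library shifted to 1 median the share of higher calls among all genes moved from 50.9% to 38.5% at basal, from 51.1% to 39.7% at deprived and from 48.9% to 61.5% at 1 h, and 2, 2 and 1 of the 5 genes were called.

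Between media under GFP, deprived against basal called none of 5 (23.6% of all genes). At 1 h against deprived 2 of 5 were lower (59.5% of all genes), Igf2r at -0.66 (adjusted p = 8.53e-05) and Mest at -0.34 (0.0256). At 4 h against 1 h 1 of 5 was higher (36.7% of all genes), Igf2r at 0.37 (0.0178). At 1 h against basal 1 of 5 was lower (58.8% of all genes), Igf2r at -0.47 (0.00206). At 4 h against deprived 2 of 5 were lower (66.1% of all genes), Mest at -0.60 (0.000189) and Igf2r at -0.29 (0.0352). Only some of these calls held without each library. Mest at 1 h against deprived was lost without GFP deprived library 1 (0.0655) or GFP 1 h library 1 (-0.19, 0.251) or 3 (0.0646). Igf2r at 4 h against 1 h was lost without GFP 1 h library 1 (0.0575) or 3 (0.0699) or GFP 4 h library 1 (0.0762), and Igf2r at 4 h against deprived without GFP deprived library 1 (0.119) or 2 (0.0939) or GFP 4 h library 2 (0.0819) or 3 (0.115). The Igf2r and Mest calls of -0.66, -0.47 and -0.60 were kept without any 1 library.

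Between media under CRE, deprived against basal called 2 of 5 (28.5% of all genes), with Meg3 at -0.91 (adjusted p = 0.0286) and Igf2 at 0.50 (0.00979). At 1 h against deprived 2 of 5 were called (60.1% of all genes), Meg3 at 0.73 (0.0410) and Igf2 at -0.34 (0.0481). At 4 h against 1 h 2 of 5 were called (25.4% of all genes), Meg3 at -1.10 (0.0112) and Igf2r at 0.35 (0.0348), the latter 0.21 (0.191) without the library that stood apart. At 1 h against basal none of 5 was called (48.2% of all genes). At 4 h against deprived 1 of 5 was called (51.8% of all genes), Igf2r at 0.29 (0.0475), which was 0.15 (0.275) without that library.

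The CRE calls rested on few libraries. Meg3 at 4 h against 1 h was -0.54 (adjusted p = 0.00125) without the library that stood apart, and remained called. Meg3 at 1 h against deprived was lost without any 1 of the 6 libraries compared (0.0581 to 0.107), and Meg3 at deprived against basal without any of 5 of them (0.0527 to 0.0875), all but CRE deprived library 1. Igf2 at deprived against basal was lost without CRE basal library 1 (0.0574). Igf2 at 1 h against deprived was lost without any of 5 libraries (0.0592 to 0.315), all but CRE 1 h library 1. Igf2r at 4 h against 1 h was also lost without any CRE 1 h library (0.0524 to 0.124), and Igf2r at 4 h against deprived without CRE deprived library 3 (0.211) or CRE 4 h library 2 (0.0552).

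Meg3 depended on which libraries set its spread. Over all 24 libraries its standard error was 0.29. With the groups compared fitted alone, which leaves out the library that stood apart wherever CRE 4 h is not compared, Meg3 was also called for CRE against GFP at deprived (-0.57, adjusted p = 1.49e-06, and 0.101 with all libraries), where the groups did not overlap. Under GFP it was then called at deprived against basal (-0.38, 0.000676), 4 h against 1 h (-0.57, 0.00375), 1 h against basal (-0.29, 0.0285) and 4 h against deprived (-0.48, 8.14e-05). Under CRE it was called at 1 h against basal (-0.18, 0.00695) and no longer at 4 h against 1 h (0.278). EdgeR on the recovered counts also called it at deprived between CRE and GFP (-0.60, 0.0185), and under GFP at 4 h against 1 h (-0.61, 0.0257) and against deprived (-0.50, 0.0464). Dlk1 was called in none of these comparisons with all libraries, its differences lying between -0.30 and 0.19.

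The difference of the medium response between CRE and GFP was called in 3 of 5 such tests. From deprived to 1 h, Igf2r differed by 0.60 (SE 0.16, adjusted p = 0.00367) and Mest by 0.62 (SE 0.19, adjusted p = 0.00404), 2 of 5 genes where 66.5% of all genes were called. From basal to 1 h, Igf2r differed by 0.53 (SE 0.16, adjusted p = 0.00903) and Mest by 0.42 (SE 0.19, adjusted p = 0.0490), 2 of 5 where 64.0% were called. From deprived to 4 h, Igf2r differed by 0.58 (SE 0.16, adjusted p = 0.00467) and Mest by 0.70 (SE 0.19, adjusted p = 0.00142), 2 of 5 where 69.1% were called. Mest from basal to 1 h was lost without any of 9 of the 12 libraries compared (0.0506 to 0.211). Meg3 from deprived to 4 h was not called with all libraries but was without the CRE 4 h library that stood apart (0.67, 0.000483). With the groups compared fitted alone Meg3 was called from basal to deprived (-0.53, 0.00441) and from deprived to 1 h (0.64, 0.00232). From basal to deprived none of 5 was called with all libraries (4.78% of all genes), nor from 1 h to 4 h (7.14% of all genes).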

How the data were processed

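Liver values were deposited by the authors as raw counts per Ensembl or NONCODE identifier. Per the submitters' processing notes they came from HISAT2 and Subread on mm10, with DESeq2 and edgeR also listed; the strand setting of the counting is not given in the sources used here. MEF values were deposited by the authors on a log2 scale, after a variance-stabilising transformation of all 24 libraries together, with STAR 2.7.10b, featureCounts, DESeq2 and limma named per the submitters' processing notes.

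Identifiers were mapped to symbols with GENCODE M21, which named 48144 of 48526 Ensembl identifiers, and 87774 NONCODE identifiers were kept in the library sizes. NONCODE identifiers took 20.543% to 24.762% of the counts. Liver counts were tested with edgeR 4.0.16 (robust quasi-likelihood, TMM, default expression filter, all 12 libraries in a fit) in R 4.3.3. MEF values were tested with limma 3.58.1 (trend, all 24 libraries), after undoing the transformation showed that 100.0% of values came out whole within a tolerance of 0.01. DESeq2 1.42.0 and edgeR on the recovered counts were alternatives. Genes entered the MEF test where their mean value exceeded that of 0 counts by at least 1 log2 unit. Values per length used the union of exons. The code was tested on simulated data first, with Python 3.11.15 and R.

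All 10 genes were followed in every comparison, with Dlk1 in liver and Afp, Gpc3, Peg3 and Cdkn1c in the MEFs too low to test, no MEF test for H19, and the MEF text giving mainly the genes called. From each list up to 4 genes with the smallest adjusted p and the neighbours of the imprinted domains were eligible, and any other gene is named for its known role with its values seen. Likeness is the highest Pearson correlation over libraries, without predicted genes. The genes and lists were chosen with earlier results of these data known. Alternatives covered scaling, filter, tool, samples in the fit, leaving out libraries, the replicate number as a block, and gene length.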

Additional observations from a re-analysis of the deposited data

Results flagged for a closer look

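In liver the response to fasting differed between genotypes for 2 of the genes, by edgeR's interaction term. Meg3 differed by 3.33 (SE 0.30, adjusted p = 5.76e-06) and Peg3 by -2.91 (SE 0.42, adjusted p = 0.000279). In the MEFs the response to medium differed between CRE and GFP headings for Igf2r and Mest, by limma's interaction term. From deprived to 1 h the differences were 0.60 for Igf2r and 0.62 for Mest (adjusted p = 0.00367 and 0.00404). From basal to 1 h they were 0.53 and 0.42 (0.00903 and 0.0490), and from deprived to 4 h 0.58 and 0.70 (0.00467 and 0.00142). The deprived, 1 h and basal libraries are shared between these MEF tests. The methionine-response genes also moved in opposite directions between the GFP and CRE headings, and their part in these differences was not tested.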

How the results depend on the processing

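No direction of any of the genes reversed past a threshold. Of the liver results recomputed under an alternative, 518 kept their direction and their side of the threshold, 17 gained a call and 16 lost one. Another 33 changed sign with no call in either setting. In the MEFs these numbers were 1240, 30, 73 and 42. For fasting in wild-type liver 3 genes called became 6 with library sizes alone, 5 with no filter and 5 with the groups compared fitted alone; in Vps15LKO liver 1 became 3 with no filter, 0 with the groups alone and 2 with DESeq2, and 0 to 2 with a library left out. Between CRE and GFP, 1 at basal became 2 with 1 median per library, 2 at deprived became 1 with DESeq2 on recovered counts, 0 at 1 h became 1 with 1 median per library (0 to 1 leaving out a library), and 1 at 4 h became 0 with no filter and with DESeq2 (0 to 2). Under GFP, deprived against basal went from 0 to 1 with the groups alone, 1 h against deprived from 2 to 1 with no filter and DESeq2 (1 to 2), 4 h against 1 h from 1 to 2 with the groups alone and edgeR (0 to 1), 1 h against basal from 1 to 2 with the groups alone (1 to 2), and 4 h against deprived from 2 to 1 with no filter (1 to 2). Under CRE, deprived against basal went from 2 to 1 with no filter (0 to 2), 1 h against deprived from 2 to 0 with no filter and to 1 with no trend, the block, edgeR and DESeq2 (0 to 1), 4 h against 1 h from 2 to 1 with no filter and 0 with the groups alone (1 to 2), 1 h against basal from 0 to 1 with the groups alone, and 4 h against deprived from 1 to 0 with no filter, the block and the groups alone (0 to 1). The interaction from basal to deprived went from 0 to 1 with the groups alone, and that from basal to 1 h from 2 to 1 with no filter, the block, the groups alone, edgeR and DESeq2 (1 to 2). The causes were not tested. In level per length 6 genes changed place with the longest transcript.

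The MEF replicate number was also used as a replicate block. Deviations of same-numbered libraries correlated weakly (84 pairs, correlations of -0.163 to 0.23, median 0.024, 10 above 0.1). Weak correlations cannot show whether the number marks a shared culture or batch, so the block was kept as an alternative. With the replicate block 1 gene was called in CRE 1 h against deprived, 0 in CRE 4 h against deprived and 1 in the interaction from basal to 1 h, and the count was the same in the other 16 comparisons. No paired analysis was possible in liver because the columns carry no replicate numbers shared between groups. Low counts limit H19, Igf2 and Dlk1 in liver and Mest, Igf2 and Dlk1 in the MEFs.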
